A study of Mus musculus with 8 samples.

Results

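The cell cycle and proliferation genes examined here are 40 genes of DNA replication, mitosis and cell cycle control, chosen by symbol from a list of cyclins, cyclin-dependent kinases (CDKs), CDK inhibitors, replication factors, mitotic genes and the transcription regulators Foxm1, E2f1 and Rb1. All 40 were found among the 21532 genes of the expression table. The table holds liver RNA of 8 male db/db mice, which lack the long form of the leptin receptor and become obese and diabetic. From 8 weeks of age, 4 mice received a control and 4 received AF1 peptide, a fragment of the estrogen receptor alpha activation function 1 region, each at 5 mg/kg body weight by retro-orbital injection, 2 times per week for 5 weeks. Both groups carry the db/db genotype, and no lean mice were analysed here, so every value below is a level in obese diabetic liver. The comparison asks how the liver transcriptome differed after AF1 peptide treatment, here for the genes that drive cell division.

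A cell enters the cycle when D-type cyclins activate Cdk4 and Cdk6, which phosphorylate the retinoblastoma protein and release E2F transcription factors, and cyclin E with Cdk2 then carries the cell into S phase. Replication origins are licensed beforehand by Cdc6 and Cdt1, which load the Mcm helicase, and passage through mitosis follows on Cdk1 with the A and B cyclins, the Aurora and Polo kinases and the spindle checkpoint. Most hepatocytes of an adult liver rest outside the cycle and re-enter it after tissue loss or injury, and dividing cells of a whole liver also include macrophages, endothelial cells and other non-parenchymal cells.

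Promoter sequences are shown first, as background to the replication genes and the mitotic genes, whose promoters are known to carry different control elements; no link between these letters and the values was tested. RefSeq (GRCm38.p6) gave 250 bases before the start of 32 of the 40 genes. Ccna2, Ccnd1, Ccnd2, Ccne2, Mcm4, Aurkb, Foxm1 and Rb1 had no entry. Each window was searched on both strands for the cell cycle genes homology region (CHR, TTTGAA or TTCGAA), the CCAAT box (CCAAT) and the E2F site (TTTCCCGC, TTTCGCGC, TTTGCCGC or TTTGGCGC). These motifs can overlap each other in a window, and a match is a description of letters, not evidence of binding. Cdk1, Cdc20 and Mki67 are shown for the mitotic group, Mcm5 for the replication group, and Cdt1 as the only member whose groups did not overlap. Capitals mark motif matches on either strand, and each sequence runs 5′ to 3′ on the strand of the gene.
Cdk1, chr10:69352913-69353162, minus strand: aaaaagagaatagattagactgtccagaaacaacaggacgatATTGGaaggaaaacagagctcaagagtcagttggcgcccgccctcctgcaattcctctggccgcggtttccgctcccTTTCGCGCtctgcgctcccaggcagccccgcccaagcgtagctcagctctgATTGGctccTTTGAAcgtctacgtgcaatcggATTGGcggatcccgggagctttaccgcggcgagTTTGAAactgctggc
Cdc20, chr4:118437344-118437593, minus strand: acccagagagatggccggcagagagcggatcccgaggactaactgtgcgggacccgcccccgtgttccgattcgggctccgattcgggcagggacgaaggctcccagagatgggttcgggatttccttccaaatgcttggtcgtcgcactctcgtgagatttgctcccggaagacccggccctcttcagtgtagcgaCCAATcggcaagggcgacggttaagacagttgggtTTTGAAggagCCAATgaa
Mki67, chr7:135716380-135716629, minus strand: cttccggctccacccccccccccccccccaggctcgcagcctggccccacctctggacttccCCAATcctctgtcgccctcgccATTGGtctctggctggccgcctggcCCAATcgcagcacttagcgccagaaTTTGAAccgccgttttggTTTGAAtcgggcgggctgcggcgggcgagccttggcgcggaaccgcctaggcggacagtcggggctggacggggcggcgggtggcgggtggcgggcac
Mcm5, chr8:75109259-75109508, plus strand: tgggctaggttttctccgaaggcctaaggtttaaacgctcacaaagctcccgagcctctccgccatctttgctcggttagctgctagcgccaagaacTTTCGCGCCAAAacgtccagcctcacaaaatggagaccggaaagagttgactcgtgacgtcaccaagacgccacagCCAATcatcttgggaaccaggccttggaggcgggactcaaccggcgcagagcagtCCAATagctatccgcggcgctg
Cdt1, chr8:122567765-122568014, plus strand: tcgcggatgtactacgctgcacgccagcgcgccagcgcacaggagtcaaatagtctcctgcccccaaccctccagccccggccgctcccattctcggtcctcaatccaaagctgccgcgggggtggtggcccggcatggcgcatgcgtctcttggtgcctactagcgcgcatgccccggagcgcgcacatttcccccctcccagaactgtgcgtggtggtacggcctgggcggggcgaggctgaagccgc
Cdc20 and Mki67 held CHR and CCAAT letters without an E2F site, Cdk1 held all 3 motifs, Mcm5 held E2F and CCAAT letters, and the Cdt1 window held none of them. In Mcm5 an E2F match on one strand overlapped a second on the other strand. Among the 11 windows of the mitotic genes, the B cyclins and Cdk1, a CHR stood in 6 (54.5%), a CCAAT box in 10 (90.9%) and an E2F site in 1 (9.09%). Among the 14 windows of the licensing, fork and nucleotide genes with E2f1 and Ccne1, a CHR stood in 2 (14.3%), a CCAAT box in 8 (57.1%) and an E2F site in 4 (28.6%). Over all 27025 genes with a promoter entry, a CHR stood in 17.4%, a CCAAT box in 34.5% and an E2F site in 1.91%.

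Libraries held 23031880 to 45117528 reads, and reads of genes in mitochondrial DNA made up 20.8% to 37.8% of them. The mouse AF1 peptide replicate 1 stood apart from the other 7 on the first principal component (39.3% of the variance over all genes tested), at 74.2 against -21.8 to 2.33. In the same mouse the summed normalized count of 12 Kupffer cell and macrophage markers was 3940, against 8874 to 11265 in the control mice and 9510 to 10609 in the other AF1 peptide mice. All 12 markers were detected in every mouse, and 11 of them were lower in that mouse than in all 4 control mice. Of 8 hepatocyte markers, all detected in every mouse, Alb, Apoa1 and Ttr were lowest of the 8 mice there and the other 5 were highest. Their summed count, most of it Alb, was 1.72e+06 in that mouse against 2.40e+06 to 2.53e+06 in the control mice, while Tat stood at 68710 against 7551 to 23830, and the mean log2 difference of the 8 was 0.39. Values of the members described in full are given with and without AF1 peptide replicate 1. In whole tissue, fewer cells of a type and less RNA per cell cannot be told apart.

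The members covered a wide range of levels. Divided by exon length, which is needed to compare genes with each other, control levels ran from 1.81 ± 0.755 normalized counts per kilobase for Ccne2 (cyclin E2) to 300 ± 20.7 for Cdk4 (mean ± SD, n = 4). Pcna, the sliding clamp of the replication fork, followed Cdk4 at 239 ± 38.8 per kilobase, and Cdkn1a, the p53-induced CDK inhibitor p21, stood at 137 ± 52.0. The proliferation marker Mki67 reached 44.4 ± 7.82 per kilobase and Top2a, the topoisomerase of dividing cells, 13.1 ± 2.30. The lowest members after Ccne2 were the spindle checkpoint kinase Bub1 at 2.79 ± 1.12, the licensing factor Cdc6 at 4.28 ± 0.467 and Ccnb1 (cyclin B1) at 9.52 ± 4.73. Of the 39 neighbouring pairs in this order, 33 differed by less than the larger of their SDs, and the 6 that lay farther apart included Cdk4 and Pcna, Pcna and Cdkn1a, and Ccnb1 and Cdc6. Cdk4, Pcna and Cdkn1a stood above all 9 mitotic genes. Tspan31 overlaps Cdk4 on the opposite strand over 641 bases. Its mean in control mice was 12691 normalized counts, against 975 for Cdk4. The part of Tspan31 reads in the Cdk4 level, and so in the place of Cdk4 in this order, was not tested. Lengths came from GENCODE gene models of another build than the alignment, and were used for no test.

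**Figure D1:**
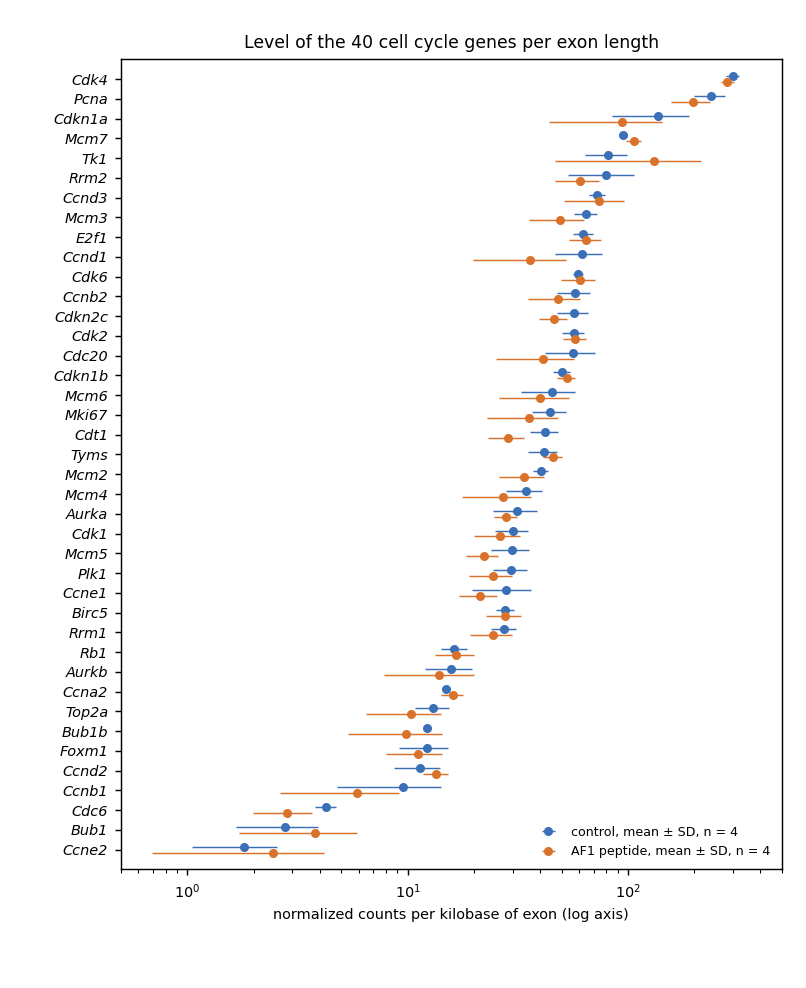
Level of the 40 genes in normalized counts per kilobase of exon (log axis), mean ± SD of 4 control mice (blue) and 4 AF1 peptide mice (orange). The control means run from 1.81 for Ccne2 to 300 for Cdk4, and the SDs of the groups overlap for most genes.

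Of the 40 genes, 39 had a mean of 10 or more normalized counts and were tested, and Ccne2 did not. Its normalized counts were 2.47, 6.89, 7.57 and 8.37 in control mice and 13.1, 0, 8.24 and 12.9 in AF1 peptide mice, and the 0 in the shallowest library allows a level of up to 5.48. Differences between groups are on the log2(normalized count + 1) scale, AF1 peptide minus control, from limma across all 15989 genes that passed the filter. A gene is called lower or higher at an unadjusted limma p under 0.05, and p values adjusted by Benjamini-Hochberg over all genes are given beside it.

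Most members had a lower mean in AF1 peptide mice, but none passed the adjusted test. The log2 difference was below 0 for 28 of the 39 members and above 0 for 11, with a median of -0.24, beside a median of -0.01 and 51.8% below 0 over all genes tested. Cdt1, Ccnd1, Mcm3 and Mcm5 were called lower, which is 4 of 39 members (10.3%), against 3.03% of all genes called lower. No member was called higher, against 3.16% of all genes. After adjustment 0 members passed in limma (lowest adjusted p = 0.763), as did 0% of all genes, although 990 genes had an unadjusted p under 0.05. edgeR on the recovered reads gave 0 genes with an adjusted p under 0.05, and 3 members lower at an unadjusted p under 0.05 (Ccnd1, Cdt1, Mcm5), against 3% of all genes lower. DESeq2 gave 3 genes with an adjusted p under 0.05, none of them members (lowest adjusted p of a member = 0.551). At an unadjusted p under 0.05 it had Ccnd1 and Cdt1 lower and Tk1 higher, against 2.79% of all genes lower and 3.51% higher. Cdt1 was the only member whose 4 AF1 peptide mice all lay below the 4 control mice, against 1.85% of all genes. No member lay wholly above, against 2.05% of all genes.

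**Figure D2:**
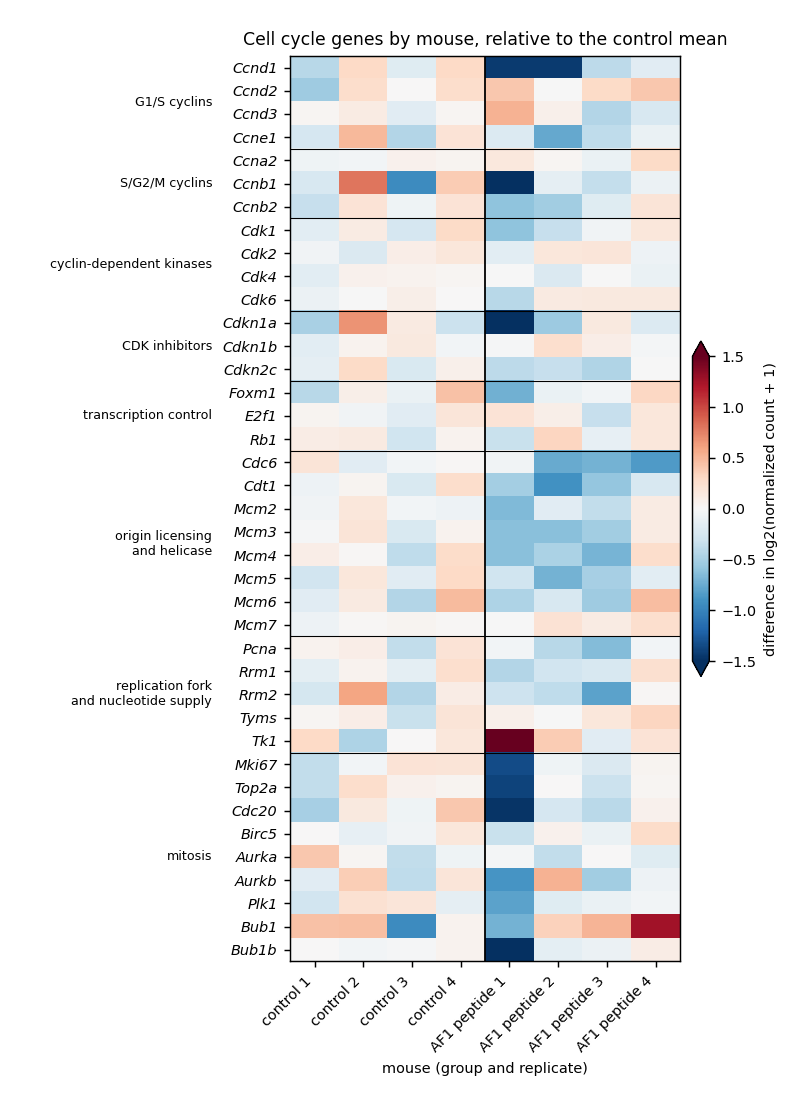
Difference of each of the 39 tested genes from its control mean in each mouse, in log2(normalized count + 1), with genes in rows by role and mice in columns. Mitotic genes such as Mki67, Top2a, Cdc20 and Bub1b are deep blue in AF1 peptide replicate 1 and paler in replicates 2 to 4. Among these paler values, Cdc20 reaches -0.40 and Top2a -0.32 in replicate 3. Cdt1, Mcm3 and Mcm4 are blue in replicates 1 to 3.

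The count of calls moved with single mice. Without AF1 peptide replicate 1, 5 members were called lower (Ccnd1, Cdc6, Cdt1, Mcm5 and Pcna) and 0 higher, against 5.48% of all genes lower and 4.58% higher, and the median of the members was -0.11. Leaving out AF1 peptide replicate 4 gave 8 members called lower, against 3.65% of all genes. Leaving out AF1 peptide replicate 3 gave 2 lower and 1 higher, against 3.23% and 2.75% of all genes. A single member, Cdt1, was called lower without AF1 peptide replicate 2, control replicate 2 or control replicate 4, against 2.46%, 1.59% and 2.16% of all genes. The mean difference over all members was -0.50, -0.20 and -0.22 in AF1 peptide replicates 1, 2 and 3 and 0.08 in replicate 4, while control mice lay between -0.16 and 0.14.

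Origin licensing and helicase genes held 3 of the 4 calls. Of 8 genes, 7 (87.5%) had a lower mean in AF1 peptide mice, against 51.8% of all genes tested. Of the 8, 3 (37.5%) were called lower (Cdt1, Mcm3, Mcm5), against 3.03% of all genes. The median log2 difference of the 8 was -0.40, and -0.32 without AF1 peptide replicate 1. The mean difference of the 8 genes was -0.41, -0.46 and -0.47 in AF1 peptide replicates 1 to 3 and 0.00 in replicate 4, where control mice lay between -0.19 and 0.17. AF1 peptide replicates 1 to 3 lay below every control mouse for this group, and replicate 4 lay among the controls. AF1 peptide replicate 1 was not the lowest of them, unlike in the mitotic genes below.

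Cdt1, which brings the Mcm helicase to origins together with Cdc6, had normalized counts of 124, 135, 111 and 157 in control mice and 91.5, 69.4, 87.3 and 110.2 in AF1 peptide mice. The highest AF1 peptide mouse lay just under the lowest control mouse. On the log2 scale AF1 peptide mice differed by -0.56 ± 0.18 (SE; 95% interval -0.95 to -0.17; limma adjusted p = 0.763), a difference in level of -32.2%. Without AF1 peptide replicate 1 it was -0.58, and Cdt1 was called lower without each of the 8 mice in turn, at -0.66 to -0.44.

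Cdc6, the ATPase that loads the helicase with Cdt1, had normalized counts of 25.5, 19.7, 21.6 and 22.6 in control mice and 21.5, 12.8, 13.2 and 11.9 in AF1 peptide mice. AF1 peptide replicates 2 to 4 lay together below all control mice, and replicate 1 lay among the controls. This gave a log2 difference of -0.59 ± 0.27 (SE; limma adjusted p = 0.763) over 8 mice and -0.77 without AF1 peptide replicate 1, where Cdc6 was called lower (limma adjusted p = 0.473). The counts are small, 7 to 31 reads per library, and the SE of Cdc6 was the largest of the 8 licensing and helicase genes. It was singled out after its values were seen.

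Mcm3, a subunit of the helicase, had normalized counts of 239, 276, 205 and 249.6 in control mice and 156, 155, 167 and 263 in AF1 peptide mice. Replicates 1 to 3 of the AF1 peptide group lay below every control mouse, and replicate 4 lay above all but the highest. Mcm3 was called lower, with a log2 difference of -0.41 ± 0.18 (SE; limma adjusted p = 0.763). The call was lost without AF1 peptide replicate 1, 2 or 3 (log2 differences of -0.34, -0.34 and -0.38) and without control replicate 1, 2 or 4 (-0.42, -0.35 and -0.40).

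Mcm5, another helicase subunit, had normalized counts of 95.6, 132, 104 and 144 in control mice and 95.2, 71.2, 82.4 and 105 in AF1 peptide mice. The groups touched, since AF1 peptide replicate 4 lay between the control mice. Mcm5 was called lower, with a log2 difference of -0.42 ± 0.19 (SE; limma adjusted p = 0.763), and -0.46 without AF1 peptide replicate 1. The call was lost without AF1 peptide replicate 2 or 3 (-0.32 and -0.39) and without control replicate 2 or 4 (-0.36 and -0.32).

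The remaining helicase subunits were not called. Mcm2 had a log2 difference of -0.27 ± 0.16 and Mcm4 of -0.38 ± 0.23 (SE; limma adjusted p = 0.773 for both), with AF1 peptide replicates 1 to 3 at 175 to 248 normalized counts for Mcm2 and 75.0 to 87.7 for Mcm4, below all 4 control mice in both genes. In AF1 peptide replicate 4 the values were 305 and 147, near the top of the control mice. Without AF1 peptide replicate 1 the log2 differences were -0.14 for Mcm2 and -0.30 for Mcm4. Mcm6 differed by -0.19 ± 0.25. Mcm7 was the only helicase subunit with a higher mean in AF1 peptide mice, at 0.15 ± 0.10. Its normalized counts were 401, 427, 433 and 429.6 in control mice and 423, 493, 460.5 and 503 in AF1 peptide mice, so the means of the 6 subunits of this complex did not all lie on the same side of control. Mcm7 shares 23.3% of its 50-base words with other transcripts, and reads of these could not be separated here. Mcm2 and Mcm4 were singled out after their values were seen.

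**Figure D3:**
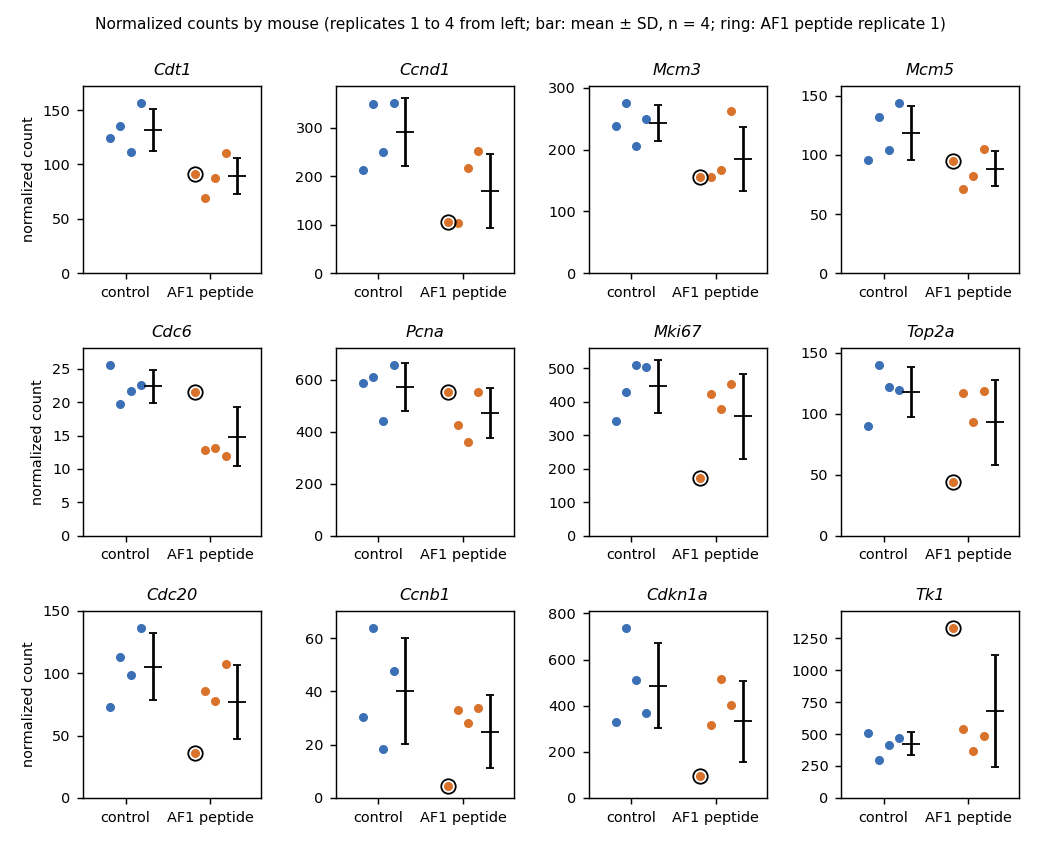
Normalized counts of 12 members in each mouse, replicates 1 to 4 from left in each group, with mean ± SD (n = 4) and a ring around AF1 peptide replicate 1; each vertical axis starts at 0. The ringed mouse is the lowest of the 8 for Mki67, Top2a, Cdc20, Ccnb1 and Cdkn1a and the highest for Tk1, but lies close to the other AF1 peptide mice for Cdt1 and Mcm3.

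Ccnd1, which encodes cyclin D1, the growth-factor-induced partner of Cdk4 and Cdk6, was the only cyclin among the members that was called in the fit over 8 mice. Its normalized counts were 213, 349, 249.7 and 351 in control mice and 105, 104, 217 and 252 in AF1 peptide mice. AF1 peptide replicates 1 and 2 lay far below all control mice, and replicates 3 and 4 lay within the control range. Ccnd1 was called lower, with a log2 difference of -0.86 ± 0.31 (SE; 95% interval -1.54 to -0.18; limma adjusted p = 0.763), a difference in level of -44.9%. It was still called lower, at -0.67, without AF1 peptide replicate 1 (limma adjusted p = 0.485). The call was lost without AF1 peptide replicate 2, control replicate 2 or control replicate 4, at -0.67, -0.76 and -0.76. The gene LTO1 lies on the opposite strand and shares 21.6% of the 50-base words of Ccnd1, and its own log2 difference was -0.12 (limma adjusted p = 0.812).

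No other D or E cyclin of the members was called in that fit. Ccnd2, with normalized counts of 71.7 to 126 in control mice and 104 to 139 in AF1 peptide mice, differed by 0.27 ± 0.20, and Ccnd3, with 563 to 689 and 468 to 914, by -0.02 ± 0.18. Ccne1, cyclin E1, differed by -0.36 ± 0.24, with values of 53 to 101 in control mice and 42 to 67 in AF1 peptide mice. None of the 3 was called (SE; lowest limma adjusted p = 0.781), and their groups overlapped. Of the D cyclins, Ccnd3 gave the most normalized counts per kilobase in control mice, at 72.6 ± 6.04 against 61.7 ± 14.8 for Ccnd1, which lay within the SD of the latter, and 11.4 ± 2.69 for Ccnd2.

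Genes of the replication fork and of nucleotide supply had 3 of 5 means below control and no call. Over all genes tested, 51.8% lay below control and 3.03% were called lower. Pcna had normalized counts of 586, 609.6, 439.9 and 656 in control mice and 552, 426, 360.0 and 553 in AF1 peptide mice. The ranges overlapped, with replicates 2 and 3 of the AF1 peptide group below all controls. Pcna differed by -0.28 ± 0.17 (SE; limma adjusted p = 0.773), and -0.37 without AF1 peptide replicate 1, where it was called lower (limma adjusted p = 0.497). The pseudogene Pcna-ps2 shares 19.1% of the 50-base words of Pcna, and reads of the 2 genes may be split between them.

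Rrm2, the regulated subunit of ribonucleotide reductase, differed by -0.37 ± 0.24 (SE), with normalized counts of 157 to 321 in control mice and 121 to 215 in AF1 peptide mice, and by -0.39 without AF1 peptide replicate 1. Its partner Rrm1 differed by -0.18 ± 0.16 and the thymidylate synthase gene Tyms by 0.14 ± 0.14, none of them called (lowest limma adjusted p of the 3 = 0.779). Tk1, the thymidine salvage kinase of S phase, went the other way. Its normalized counts were 511, 300.4, 416 and 467 in control mice and 1333, 542, 371 and 481 in AF1 peptide mice, so a single mouse, replicate 1, stood far above the other 7. Tk1 differed by 0.53 ± 0.34 (SE; limma adjusted p = 0.779), and 0.14 without that mouse. Afmid, which overlaps Tk1 on the opposite strand, had normalized counts of 4054, 1944, 3622 and 3198 in control mice and 11377, 4537, 3640 and 3440 in AF1 peptide mice. The highest value of both genes lay in the same mouse, and the part of Afmid reads in the Tk1 value was not tested. Tk1 and Rrm2 were singled out after their values were seen.

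No CDK was called. Cdk1, the kinase of mitotic entry, had normalized counts of 132, 161, 123 and 179 in control mice and 96.1, 115, 142 and 165 in AF1 peptide mice. The log2 difference was -0.21 ± 0.19 (SE; limma adjusted p = 0.832), and -0.08 without AF1 peptide replicate 1. Cdk2, Cdk4 and Cdk6 differed by 0.03 ± 0.13, -0.08 ± 0.09 and 0.00 ± 0.13 (SE), with 95% intervals that stayed between -0.29 and 0.31. In Cdk6 the 4 control mice ranged from 780.4 to 884 normalized counts, AF1 peptide replicate 1 lay at 624 and the other AF1 peptide mice at 913 to 924.

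Among the CDK inhibitors, Cdkn1a varied most. Its normalized counts were 329.6, 739, 509 and 369 in control mice and 97, 318, 514 and 401 in AF1 peptide mice, so replicate 1 lay far below and the other AF1 peptide mice lay in or close to the control range. Cdkn1a differed by -0.71 ± 0.46 (SE; limma adjusted p = 0.779), and -0.20 without AF1 peptide replicate 1. Cdkn2c, the inhibitor p18 of Cdk4 and Cdk6, had normalized counts of 138, 185, 129.7 and 159.9 in control mice and 116, 119, 110.4 and 151 in AF1 peptide mice. Replicates 1 to 3 of the AF1 peptide group lay below all control mice, and the log2 difference was -0.30 ± 0.16 (SE; limma adjusted p = 0.763), and -0.27 without AF1 peptide replicate 1. Cdkn1b, p27, the inhibitor of resting cells, differed by 0.07 ± 0.12.

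The transcription regulators of the cycle showed no common difference. Foxm1, which drives genes of mitosis, had normalized counts of 51.1, 72.9, 63.8 and 93.0 in control mice and 41.1, 63.9, 66.7 and 85.4 in AF1 peptide mice. Its log2 difference was -0.14 ± 0.26 (SE; limma adjusted p = 0.919), and turned to 0.06 without AF1 peptide replicate 1 and to 0.01 without control replicate 4. E2f1 and Rb1 differed by 0.03 ± 0.15 and 0.01 ± 0.18 (SE).

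**Figure D4:**
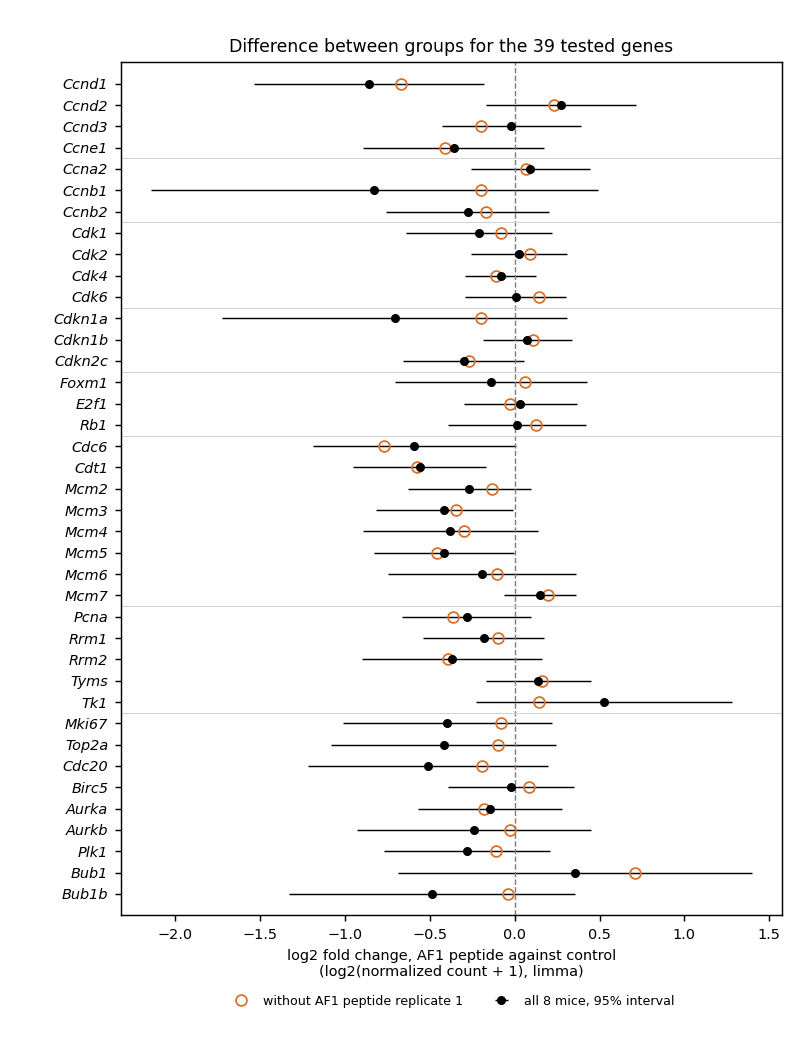
Log2 difference of each of the 39 tested genes (AF1 peptide against control, log2(normalized count + 1), limma) with its 95% interval over 8 mice in black, and the value without AF1 peptide replicate 1 as an open circle. Intervals of Cdt1, Ccnd1, Mcm3 and Mcm5 lie below 0, and the open circles of Ccnb1, Cdkn1a, Mki67 and Bub1b lie much closer to 0 than the black points.

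The mitotic genes were low in a single AF1 peptide mouse. Of 9 genes, 8 had a lower mean in AF1 peptide mice (51.8% of all genes tested), with a median log2 difference of -0.28. Of these 9, 0 were called by limma, edgeR or DESeq2, against 3.03% of all genes called lower by limma. Without AF1 peptide replicate 1 the median of the 9 genes was -0.08. Their mean difference was -0.98 in AF1 peptide replicate 1, against -0.01, -0.14 and 0.17 in replicates 2 to 4 and -0.15 to 0.14 in control mice. That mouse was the lowest of the 8 for 7 of the 9 genes (77.8%), against 16 of 39 members (41.0%) and 23.4% of all genes tested. Markers of several other cells were low in the same mouse, with a mean log2 difference of -1.25 for the 12 macrophage markers, -1.46 for the 3 tested neutrophil markers and -0.53 for the 8 stellate cell markers. The part of these cells in the mitotic genes was not tested.

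Mki67, the marker of cycling cells, had normalized counts of 342, 429, 509 and 505 in control mice and 173, 422, 378 and 453 in AF1 peptide mice. The log2 difference was -0.40 ± 0.28 (SE; limma adjusted p = 0.790), and -0.08 without AF1 peptide replicate 1. Top2a repeated this pattern, with 89.8, 139.8, 122 and 119.8 in control mice and 43.9, 117, 93.1 and 118 in AF1 peptide mice. Its log2 difference was -0.42 ± 0.30 (SE; limma adjusted p = 0.792), and -0.10 without that mouse. For both genes the 3 other AF1 peptide mice lay within the control range.

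Cdc20, the activator of the anaphase-promoting complex, had normalized counts of 72.5, 113, 98.4 and 136 in control mice and 36.4, 85.8, 77.4 and 107 in AF1 peptide mice. The log2 difference was -0.51 ± 0.32 (SE; limma adjusted p = 0.775), and -0.20 without AF1 peptide replicate 1. Bub1b, the checkpoint kinase BubR1, had the smallest SD of all members in control mice, at 51.2 to 54.4 normalized counts. AF1 peptide replicate 1 had 14 and the other AF1 peptide mice 47.5, 49.4 and 56.9, and its log2 difference was -0.49 ± 0.38 (SE; limma adjusted p = 0.806), or -0.04 without that mouse. Bub1b was singled out after its values were seen. Bub1 was the exception among the mitotic genes, at 0.35 ± 0.47, or 0.71 without AF1 peptide replicate 1, from 5 to 31 reads per library. Birc5, Aurka, Aurkb and Plk1 differed by -0.02, -0.15, -0.24 and -0.28, and were not called.

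Ccnb1, cyclin B1, had normalized counts of 30.5, 64.0, 18.4 and 47.7 in control mice and 4.67, 32.9, 28.0 and 34.0 in AF1 peptide mice, with 5 to 65 reads per library. Between groups Ccnb1 differed by -0.83 ± 0.59 (SE; limma adjusted p = 0.792), and -0.20 without AF1 peptide replicate 1, so its size rested on that mouse. Ccnb1 shares 23.4% of its 50-base words with other transcripts, its pseudogene Ccnb1-ps among them. Ccnb2 differed by -0.28 ± 0.22, while Ccna2, cyclin A2, lay at 58.5 to 63.8 in control mice and 56.8 to 74.4 in AF1 peptide mice and differed by 0.09 ± 0.16 (SE; lowest limma adjusted p of the 2 = 0.806).

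Genes of a group varied together to different degrees. Each log2 value was first taken as its deviation from the mean of its own group, so the difference between groups does not enter. Over 36 pairs of mitotic genes the median Pearson correlation of these deviations was 0.64 over 8 mice. It was 0.20 over the 7 mice without AF1 peptide replicate 1. Over 28 pairs of licensing genes the median was 0.54 over 8 mice and 0.59 over 7. Over 8 mice, single pairs ran from -0.55 to 0.95 for mitotic genes and from -0.91 to 0.94 for licensing genes. Over 7 mice they ran from -0.875 to 0.814 and from -0.723 to 0.935. Pairs of other genes were not computed, so no background value stands beside these medians. The points are mice of both groups, and the fall in the mitotic value restates that this mouse was low in those genes. No test compared the 2 groups of genes. The members also varied more than other genes within groups, with a median SD of 0.30 on the log2 scale against 0.24 over all genes tested, and of 0.25 against 0.21 without AF1 peptide replicate 1.

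**Figure D5:**
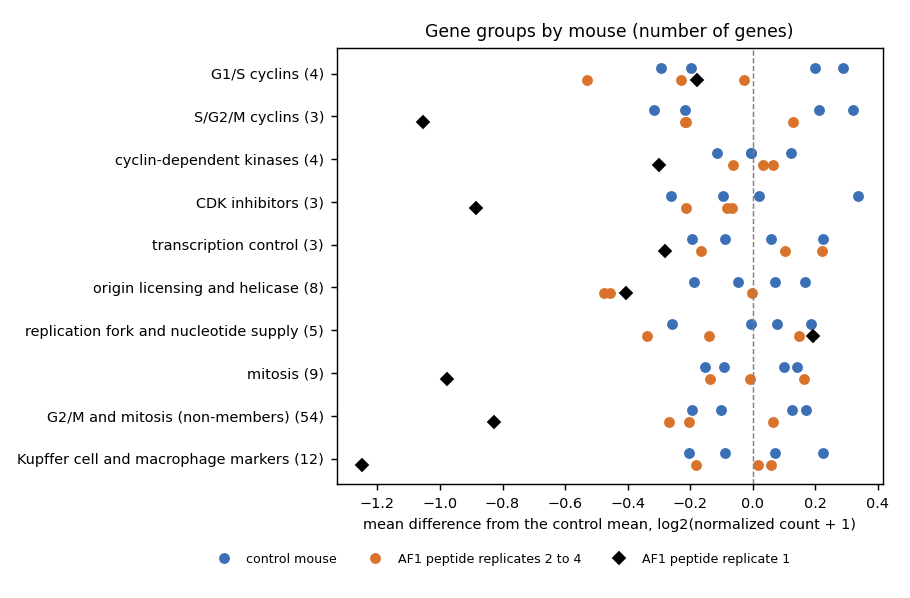
Mean difference from the control mean in log2(normalized count + 1) for each gene group (number of genes in brackets), with control mice as blue points, AF1 peptide replicates 2 to 4 as orange points and AF1 peptide replicate 1 as a black diamond. For the mitotic genes and the macrophage markers the diamond stands alone at -0.98 and -1.25, whereas for the licensing genes it lies beside 2 orange points.

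Other cell cycle genes, outside the 40, were read from lists of the pathway. Of 56 further G2/M and mitosis genes, 54 were tested, 49 had a lower mean in AF1 peptide mice and 6 were called lower (11.1%) and 0 higher, with a median log2 difference of -0.32, or -0.09 with 5 called lower without AF1 peptide replicate 1. Over all genes tested, 51.8% had a lower mean, 3.03% were called lower and 3.16% higher. The share of all genes called lower was 5.48% without AF1 peptide replicate 1. That mouse was the lowest of the 8 for 34 of the 54 (63.0%), against 23.4% of all genes tested. The 3 with the smallest p were Ccnf (cyclin F), Cdca3 (a trigger of mitotic entry) and Spc25 (a kinetochore subunit), at -0.55, -0.58 and -0.53 (limma adjusted p = 0.763 for each). Ccnf had normalized counts of 221 to 267 in control mice and 115 to 200.2 in AF1 peptide mice, without overlap. These genes were still called lower without AF1 peptide replicate 1, at -0.38, -0.43 and -0.50.

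Of 49 further G1/S and DNA replication genes, 47 were tested and 30 had a lower mean, with a median of -0.06. Of the 47, 4 were called lower (8.51%, against 3.03% of all genes) and 0 higher (3.16% of all genes). Without AF1 peptide replicate 1 the median was -0.06, and 3 were called lower and 1 higher, against 5.48% and 4.58% of all genes. Gins2, a subunit of the GINS complex that joins the Mcm helicase at the fork, had normalized counts of 33.0, 45.3, 24.9 and 43.6 in control mice and 11.2, 12.8, 18.9 and 30.3 in AF1 peptide mice. Its log2 difference was -1.03 ± 0.34 (SE; limma adjusted p = 0.763), and -0.84 without AF1 peptide replicate 1. Orc5, a subunit of the origin recognition complex, lay at 347 to 388 in control mice and 296 to 325 in AF1 peptide mice, without overlap, and differed by -0.25 ± 0.10 (SE; limma adjusted p = 0.763), and by -0.24 without AF1 peptide replicate 1.

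Of 35 further cell cycle regulators, 33 were tested, 19 had a lower mean and 0 were called in either direction (limma, unadjusted p under 0.05). Their median was -0.03. Without AF1 peptide replicate 1 the counts were 3 lower and 1 higher, against 5.48% and 4.58% of all genes. Over the 3 lists together, 10 of 134 genes were called lower (7.46%) and 0 higher, against 3.03% and 3.16% of all genes. The count called lower was 5 without AF1 peptide replicate 2, 4 without control replicate 2 and 5 without control replicate 4. The shares of all genes called lower in these fits were 2.46%, 1.59% and 2.16%. None had a limma adjusted p under 0.05. Of 24 p53 and DNA damage response genes, read beside Cdkn1a, 19 had a lower mean and 1 was called lower (4.17%, against 3.03% of all genes) and 0 higher (3.16% of all genes), with a median of -0.15. The share called lower was near that of all genes. The called gene was Eda2r, a receptor of the TNF receptor family induced by p53, at 32.7 to 41.1 normalized counts in control mice and 8.40 to 31.2 in AF1 peptide mice, without overlap, with a log2 difference of -1.05 ± 0.35 (SE; limma adjusted p = 0.763). Without AF1 peptide replicate 1 the list had 4 genes called lower, against 5.48% of all genes, and Eda2r differed by -0.74.

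The macrophage sum of AF1 peptide replicates 2 and 3, where licensing genes were low, lay within 9510 to 10609, inside the control range. In AF1 peptide replicate 1, where licensing genes were also low (-0.41), it was 3940, below the control range. The 12 lymphocyte markers summed to 280 to 417 normalized counts in control mice and 244 to 393 in AF1 peptide mice, and 7 of 8 neutrophil markers found in the table to 166 to 243 and 73.7 to 290.0. The 8 endothelial markers summed to 4903 to 5606 and 4509 to 5448, the 8 stellate cell markers to 5531 to 6964 and 4409 to 7365, and the 7 cholangiocyte markers to 1234 to 1911 and 1026 to 2441. The 10 erythroid markers summed to 34311 to 123610 and 27518 to 52070. The neutrophil markers Mpo and Cxcr2, the cholangiocyte marker Cftr and the erythroid marker Ahsp were at 0 in at least 1 mouse. AF1 peptide replicate 1 had the lowest sum of the 8 mice for the lymphocyte, neutrophil, stellate cell, cholangiocyte and erythroid markers. By single genes it was the lowest for 7 of 12, 3 of 7, 4 of 8, 1 of 7 and 3 of 10 of them. Prom1, Klf1, Cd3e and Cd8a were among the markers highest there. Over the tested genes of each list the mean log2 difference of that mouse was -0.36, -1.46, -0.53, -0.03 and -0.24. The part of these cells in the values above was not tested.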

How the data were processed

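RNA-Seq of liver was carried out on 4 control and 4 AF1 peptide db/db mice, labelled as biological replicates. The authors prepared stranded mRNA libraries, trimmed reads with Trim Galore 0.6.7, aligned with HISAT2, used SAMtools 1.17 for sorting, and took counts per gene from GenomicAlignments. The build named in the submitters' processing notes is mm39. The annotation, the strand setting of the counting and the handling of multiply matching reads are not given in the sources used here. The authors deposited a signal per gene and mouse, a normalized count (reads divided by the size factor of the library), for 21532 genes with at least 10 reads in total. Dividing each value by the value of 1 read gave whole reads for 100% of 172256 values (tolerance 0.01 reads).

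The members, gene lists and tests were chosen with earlier results of these data known. Values were tested as log2(normalized count + 1) with limma 3.58.1 (intensity trend, R 4.3.3) over 15989 genes with a mean of at least 10, unpaired. Full statistics are given for members with an unadjusted p under 0.05, members without overlap between groups, the member with the smallest p in each role, and Mki67, Top2a, Ccnd1, Cdk1, Cdkn1a and Pcna. Cdc6, Tk1, Bub1b, Rrm2, Mcm2 and Mcm4 lie outside this rule and are said to be chosen after their values were seen. The remaining tested members are given by log2 difference, some with SE or normalized counts, also outside this rule. At most 3 genes with the smallest p are named from each wider list, and a gene that this rule selects is not reported here. DESeq2 1.42.0 and edgeR 4.0.16 run with the whole reads, pseudocounts of 0.5 and 5, filters, scalings, variance models and leaving out each mouse were alternatives. Rescaling to equal totals without the 13 mitochondrial genes was added after seeing the data. Shared sequence was measured as 50-base words found in other GENCODE M21 transcripts. 14 members shared 5% or more, and 26 shared less. Replicates of a group differed by far more than sampling noise, so no library was a duplicate. The limma p values set the difference between groups against the spread between mice within a group. The variance of each gene is drawn toward that of genes of similar level.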

Additional observations from a re-analysis of the deposited data

Results flagged for a closer look

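In 5 of 96 groups of 4 mice that were examined, the extreme mouse lay farther from its neighbour than Dixon's 95% critical value allows, and chance gives about 4.8 such groups. The gap is given as a share of the range of the group. The normalized count of Mcm2 in control mice was highest in replicate 2, at 313 against 265 to 270.2 in the other 3, a gap of 0.90. In AF1 peptide mice, Cdk6 was lowest in replicate 1, at 624 against 913 to 924 in the others, a gap of 0.965. Cdc6 was highest in AF1 peptide replicate 1, at 21.5 against 11.9 to 13.2, a gap of 0.87. Mcm3 was highest in AF1 peptide replicate 4, at 263 against 155 to 167, a gap of 0.888. The mean log2 difference of the 8 licensing and helicase genes was highest in the same mouse, at 0.00 against -0.47 to -0.41, a gap of 0.854.

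In the mean of the 8 licensing and helicase genes, AF1 peptide replicates 1 to 3 lay below the control mice and replicate 4 lay among them. Single genes departed from this. Cdt1 was below all control mice in replicate 4 too, and Cdc6 was below them in replicates 2 to 4 but not in replicate 1. Mcm7 was not below them in any AF1 peptide mouse. Mcm6 in replicate 2, at 174 normalized counts, lay inside its control range of 151 to 286. The macrophage marker sum did not separate AF1 peptide replicate 4 (within 9510 to 10609) from replicates 2 and 3. These differences between mice were not tested further.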

How the results depend on the processing

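The number of members with an adjusted p under 0.05 was 0 in every alternative run, and the median log2 difference of the members stayed below 0, at -0.36 to -0.11 over the fits without a single mouse and -0.33 when libraries were scaled to equal totals (all genes: -0.10). The 4 members called lower became 2 with DESeq2, 2 with equal totals without mitochondrial genes and 2 with the own variance of each gene. They became 8 with the replicate block and 1 to 8 without a single mouse. Over all 15989 genes tested, 990 were called in either direction in the main fit. That count was 1008 with DESeq2, 905 with equal totals without mitochondrial genes and 1244 with the replicate block. Members called in either direction in the same fits, in this order from the main fit, were 4, 3, 2 and 8. No count over all genes is given for the own variance. Members called higher, 0, became 1 with DESeq2 and 0 to 1 without a single mouse. In the wider lists, the 10 genes called lower became 4 to 14 without a single mouse. The 4 stood beside 1.59% of all genes (without control replicate 2) and the 14 beside 3.65% (without AF1 peptide replicate 4). The 0 called higher became 1 with the own variance, 1 with the replicate block and 0 to 2 without a single mouse. The 2 stood beside 4.58% of all genes called higher (without AF1 peptide replicate 1). No share of all genes called higher is given for the own variance or the replicate block. Foxm1 (-0.14) lay at -0.29 to 0.058 without a single mouse and changed sign without AF1 peptide replicate 1 (0.058) and without control replicate 4 (0.0067). Of 379 values of named members under alternatives, 339 kept direction and side of the threshold, 23 lost the call, 15 gained it and 2 changed sign. Cdt1 was called in 20 of 20 alternatives, Ccnd1 in 16, Mcm5 in 12 and Mcm3 in 9. Apart from alternatives with fewer mice, the cause of these changes was not tested.

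The main fit did not pair mice by replicate number. Deviations of same-numbered mice correlated at 0.235, 0.024, 0.216 and -0.064 over genes, and only numbers 1 and 3 correlated best with their own. With so few pairs, these values cannot decide whether same-numbered mice shared a batch. The 8 members lower with the replicate block included the 4 called without it. Depth limits the lowest members, with 7 to 31 reads per library for Cdc6 and 5 to 65 for Ccnb1.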
